A study of Mus musculus with 12 samples.

Results

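Astrocytes are the star-shaped glial cells that feed neurons, buffer potassium and water and wrap blood vessels, and the 10 genes described here are commonly used to recognise them. They are Gfap, Vim, Aqp4, Ntsr2, S100b, Aldh1l1, Aldoc, Agt, Sox9 and Fabp7, taken as every array feature whose platform gene symbol is one of those names. All 10 were on the array, with 18 features among the 22626 that were not controls (12393 gene symbols in all). A feature is a probe set, a group of short probes that together give 1 signal for a transcript. Of the 18 features, 17 passed the filter on dim values, as did 13575 features in all. The feature that did not pass was the second one of Aldh1l1 (1424401_at), with signals from 35 to 75 on the 12 arrays.

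The RNA came from spinal cord of 13-day-old mice of line 4299, a model of severe spinal muscular atrophy (SMA), in which too little survival motor neuron protein is made and motor neurons die. The line joins the transgenes Tg(SMN2*delta7)4299Ahmb and Tg(SMN2)89Ahmb with the mouse allele Smn1tm1Msd on the FVB.Cg background, and every group carried both human transgenes (SMN2+/+ and SmnΔ7+/+). There were 3 groups of 4 arrays: vehicle-treated mice called wildtype, whose genotype is mSmn+/−, so that they keep 1 intact mouse allele, SMA mice (mSmn -/-) given vehicle, and SMA mice given ceftriaxone, a beta-lactam antibiotic, at 200 mg/kg by daily intraperitoneal injection from day 5. The vehicle was saline, the mice were perfused with fixative, and the labels name both the whole cord and its lumbar segments and give neither the sex of the mice nor whether each array is 1 animal. The p-values therefore measure the spread between arrays. In a whole-tissue sample, fewer cells of a type and less RNA per cell cannot be told apart.

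Astrocytes arise from radial glia, the stem cells that line the embryonic cord, under the influence of BMP and of cytokines that act through STAT3, while Sox9 and the nuclear factor I proteins commit the cells to glia. Immature astrocytes and radial glia make vimentin and the fatty acid binding protein Fabp7. As they mature they build filaments of Gfap, place the water channel Aqp4 on their end-feet and take up glutamate and potassium. Reactive astrocytes in injured tissue make more Gfap and Vim.

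In SMA vehicle cords the members divided. Gfap, Aqp4, Ntsr2 and S100b fell to between 0.288 and 0.704 of the wildtype level (7 features of 17, where 22.3% of all 13575 features fell), whereas Aldh1l1, Sox9, Fabp7 and 1 of the 3 features of Vim rose to 1.35 to 1.65 times that level (5 features of 17, where 24.9% of all features rose). With ceftriaxone the 4 genes that had fallen were at 1.41 to 3.13 times the SMA vehicle level, and Fabp7 was lower. Agt (2.15 times) and 1 of 2 features of Aldoc (1.61 times) were higher with ceftriaxone, without a change past the threshold in SMA vehicle cords. Of the 17 features, 9 were higher and 1 lower with ceftriaxone than with vehicle, where 18.3% and 17.7% of all features were. Aldh1l1 and 1 of 2 features of Sox9 were above wildtype in ceftriaxone cords, as were Agt and 1 feature of Aldoc (4 of 17, where 3.29% of all features were higher). A change is called here at a limma adjusted p under 0.05, and every fold change was computed on log2(signal + 16).

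Sequences upstream of the start of 6 members are shown as examples of the patterns named above. Gfap and Ntsr2 stand for genes lower in SMA vehicle cords and higher with ceftriaxone. Agt and Aldoc stand for those higher with ceftriaxone without a call in SMA vehicle cords. Vim and Fabp7 stand for those higher in SMA vehicle cords. The sequences are the 180 bases before the RefSeq start, with 7 bases after it for Gfap, read 5′ to 3′ along the gene on build GRCm38.p6. Capitals mark letters that match TTCNNNGAA, the palindrome bound by STAT proteins, TATAAA, or CCAAT, each searched on both strands, where CCAAT on the other strand reads ATTGG. The windows are chr11:102897194-102897380 on the minus strand for Gfap, chr12:16653290-16653469 on the plus strand for Ntsr2 and chr8:124569707-124569886 on the minus strand for Agt. Those of the others lie on the plus strand, at chr11:78324018-78324197 for the second start of Aldoc, chr2:13574131-13574310 for Vim and chr10:57784743-57784922 for Fabp7.
Gfap: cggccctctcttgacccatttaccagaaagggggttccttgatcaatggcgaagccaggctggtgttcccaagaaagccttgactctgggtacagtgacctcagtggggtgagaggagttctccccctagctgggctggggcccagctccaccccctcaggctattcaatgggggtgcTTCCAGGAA
Ntsr2: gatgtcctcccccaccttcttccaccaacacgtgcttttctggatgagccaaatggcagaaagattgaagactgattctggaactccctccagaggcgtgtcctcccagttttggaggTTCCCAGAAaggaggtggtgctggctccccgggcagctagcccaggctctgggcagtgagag
Agt: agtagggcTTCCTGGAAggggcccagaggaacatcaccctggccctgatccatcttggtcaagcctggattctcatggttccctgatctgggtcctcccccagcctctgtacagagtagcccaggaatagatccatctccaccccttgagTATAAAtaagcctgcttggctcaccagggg
Aldoc, second start: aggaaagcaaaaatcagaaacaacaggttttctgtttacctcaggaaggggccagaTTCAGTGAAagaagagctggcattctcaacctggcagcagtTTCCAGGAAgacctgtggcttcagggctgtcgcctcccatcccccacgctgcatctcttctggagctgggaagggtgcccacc
Vim: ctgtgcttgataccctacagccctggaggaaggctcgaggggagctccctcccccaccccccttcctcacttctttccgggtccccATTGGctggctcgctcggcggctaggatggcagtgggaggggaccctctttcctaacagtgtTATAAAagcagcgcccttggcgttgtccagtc
Fabp7: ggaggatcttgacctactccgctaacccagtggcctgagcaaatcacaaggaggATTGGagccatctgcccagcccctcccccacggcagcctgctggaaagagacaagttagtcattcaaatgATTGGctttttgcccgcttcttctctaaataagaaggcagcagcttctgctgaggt

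The STAT palindrome matched in 4 of the 9 member windows with a RefSeq sequence (8 genes, Aldoc with 2 starts), counting the 300 bases from 250 before to 50 after each start, and in 8.3% of all 32851 windows. The first start of Aldoc held no match to any of the 3 motifs. S100b, which also fell in SMA vehicle cords and was higher with ceftriaxone, held no match to the STAT palindrome. The windows of S100b, Aldh1l1 and the first start of Aldoc are not printed, whereas every window with a STAT match is. In Gfap the first base of the palindrome lay at position -2, across the annotated start, and in Ntsr2 at -62. It lay at -172 in Agt, and at -124 and -83 in the second start of Aldoc. TATAAA matched in 2 of the 9 windows, Vim (-32) and Agt (-30), and in 13.6% of all windows. CCAAT matched in 4 of the 9, Vim, S100b, Aldh1l1 and Fabp7, and in 37.4% of all windows. The motifs were chosen with the sequences and the expression values in view, so these matches describe letters only. Aqp4 and Sox9 are named only.

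One wildtype array stood apart. Wildtype array 2 correlated at r = 0.924 to 0.93 with the other wildtype arrays over log2 signals, against 0.986 to 0.989 among those 3, and gave a Rag1 signal of 7862.5 where the other 11 arrays gave 0.5 to 129.9. Rag1 encodes the recombinase of developing lymphocytes, and the summed signal of 10 thymocyte genes was 38370 on that array and 84 to 532 on the others. Among the wildtype arrays, array 2 was also the lowest for 9 of the 10 members and the highest for Vim, so the members' changes from wildtype are given with and without it. Smn1, the deleted gene, gave 263.4 to 414.3 on wildtype and 3.3 to 15.8 on SMA arrays, so the arrays divided by genotype as labelled. Xist, the X-inactivation RNA of female cells, was high (1688.5 to 2343.5) on 1 wildtype, 2 SMA vehicle and all 4 SMA ceftriaxone arrays and low (20.9 to 74.2) on the others. Eif2s3y, a gene of the Y chromosome, gave 0.3 to 5 on the arrays of high Xist signal and 344.5 to 523.7 on the others. By both genes all 4 ceftriaxone arrays looked female and only 1 wildtype array did, so sex was not balanced between the groups.

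**Figure D1:**
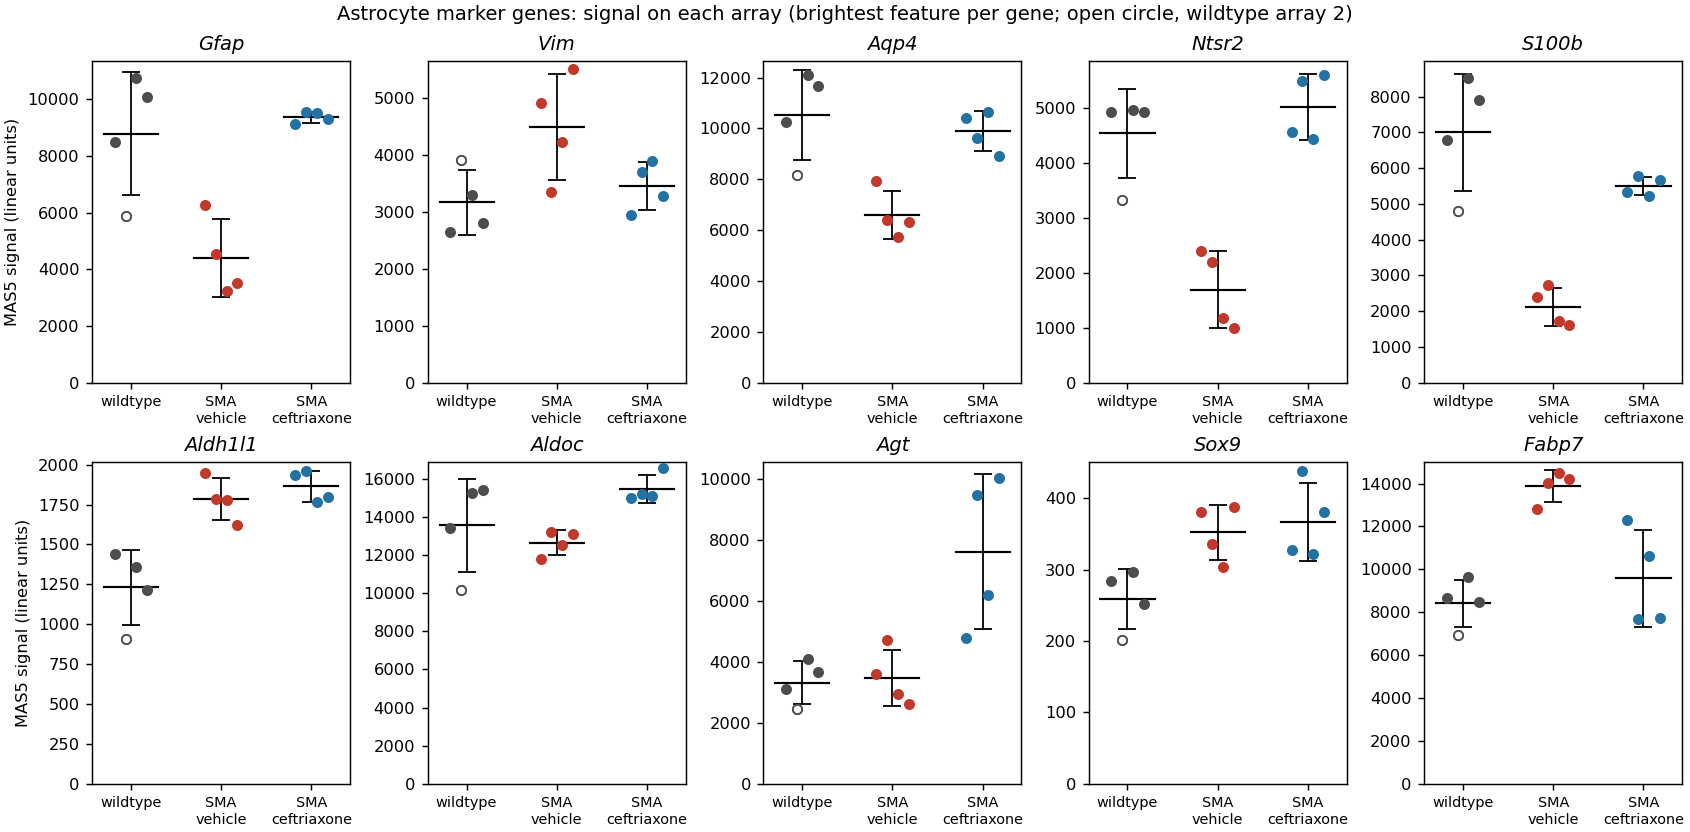
MAS5 signal (linear units) of each member's brightest feature on every array, by group. Points are arrays, wide lines are group means, error bars are 1 SD (n = 4), and the open circle is wildtype array 2. The 4 SMA vehicle arrays lie below all others for Aqp4, Ntsr2 and S100b, and above all others for Fabp7.

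Gfap, the intermediate filament protein of mature and reactive astrocytes, was measured by 2 features. The signals of 1426508_at were 8472, 5872, 10737 and 10060 in wildtype, 6261, 4547, 3248 and 3523 in SMA vehicle, and 9122, 9531, 9505 and 9296 in SMA ceftriaxone cords. Only wildtype array 2 lay below SMA vehicle array 1, so those groups overlapped, while the ceftriaxone arrays were above every SMA vehicle array. Gfap fell in SMA vehicle cords (log2 change -1.01, SE 0.20, adjusted p = 0.00113) and was 2.2 times higher with ceftriaxone (log2 change 1.14, SE 0.20, adjusted p = 9.06e-04). The other feature, 1426509_s_at, gave -1.33 and 1.44. Without wildtype array 2 the fall was -1.19 and -1.53. Against wildtype the ceftriaxone group differed by 0.13 (95% interval -0.31 to 0.56, adjusted p = 0.776) and by 0.11 (-0.41 to 0.63), and these turned to -0.05 and -0.09 without wildtype array 2. The ceftriaxone arrays spanned a narrow range: the coefficient of variation of 1426508_at was 2.06%, against 24.6% in wildtype and 31% in SMA vehicle cords.

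Vim encodes vimentin, the filament protein of immature astrocytes, and also of vessel and meningeal cells. Its brightest feature, 1450641_at, gave 2651, 3919, 3292 and 2801 in wildtype, 4910, 3348, 4220 and 5503 in SMA vehicle, and 2953, 3708, 3894 and 3287 in SMA ceftriaxone cords. SMA vehicle array 2 lay within the range of the other groups, and the 3 other SMA vehicle arrays lay above it. This feature rose in SMA vehicle cords (log2 change 0.50, SE 0.16, adjusted p = 0.0186), and the call was lost when wildtype array 1 or 4 or SMA vehicle array 1 or 4 was left out. The features 1438118_x_at (0.29, adjusted p = 0.187) and 1456292_a_at (0.43, adjusted p = 0.0874) missed the threshold. Without wildtype array 2, the highest of the wildtype arrays, all 3 passed, at 0.60, 0.42 and 0.59. With ceftriaxone Vim was lower than with vehicle by amounts that missed the threshold: -0.36 (adjusted p = 0.0898), -0.16 and -0.26. The change of 1450641_at passed without wildtype array 2 (-0.36, adjusted p = 0.0422) and without SMA vehicle array 2. None of the features differed from wildtype past the threshold in ceftriaxone cords, with changes of 0.14, 0.12 and 0.17 (0.24, 0.25 and 0.33 without wildtype array 2). At all 3 features the change of Vim in SMA vehicle cords had the opposite sign to that of Gfap.

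Aqp4 encodes aquaporin 4, the water channel of the end-feet. The feature 1434449_at gave 10241, 8168, 12099 and 11664 in wildtype, 7936, 6389, 5714 and 6303 in SMA vehicle, and 10428, 9630, 10651 and 8922 in SMA ceftriaxone cords. Every SMA vehicle array was below every array of the other groups. Aqp4 fell in SMA vehicle cords to 0.628 of wildtype (log2 change -0.67, SE 0.13, adjusted p = 7.01e-04; -0.79 without wildtype array 2) and was 1.51 times higher with ceftriaxone (log2 change 0.60, SE 0.13, adjusted p = 0.00274). The second feature, 1425382_a_at, gave -0.51 (-0.60 without wildtype array 2) and 0.49, both past the threshold and without overlap. Ceftriaxone and wildtype cords differed by -0.08 (95% interval -0.35 to 0.19) and -0.02 (-0.24 to 0.20), or by -0.19 and -0.11 without wildtype array 2. The changes of Aqp4 were smaller in size than those of Gfap, S100b or Ntsr2, a difference that was not tested.

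Ntsr2, a low-affinity neurotensin receptor of astrocytes, had 1 feature, 1417151_a_at. Its signals were 4933, 3320, 4968 and 4932 in wildtype, 2401, 2201, 1180 and 998 in SMA vehicle, and 4557, 5482, 4433 and 5590 in SMA ceftriaxone cords. The SMA vehicle arrays formed a high pair (arrays 1 and 2) and a low pair (arrays 3 and 4), all below the other groups. Ntsr2 fell to 0.355 of wildtype (log2 change -1.49, SE 0.25, adjusted p = 2.81e-04; -1.64 without wildtype array 2). With ceftriaxone it was 3.13 times the SMA vehicle level (log2 change 1.65, SE 0.25, adjusted p = 3.03e-04), the largest difference between those groups among the members. It differed from wildtype by 0.16 in ceftriaxone cords (95% interval -0.38 to 0.69, adjusted p = 0.778), or by 0.01 without wildtype array 2.

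S100b, a calcium-binding protein of astrocytes that oligodendrocytes also make, fell furthest. The feature 1434342_at gave 6785, 4799, 8523 and 7917 in wildtype, 2394, 2729, 1729 and 1608 in SMA vehicle, and 5341, 5770, 5230 and 5665 in SMA ceftriaxone cords. The SMA vehicle arrays were below all others, and the ceftriaxone arrays lay between wildtype array 2 and wildtype array 1. S100b fell to 0.303 of wildtype (log2 change -1.72, SE 0.18, adjusted p = 1.03e-05) and by -1.79 at the other feature, 1419383_at (-1.89 and -2.06 without wildtype array 2). Ceftriaxone cords were 2.65 times above SMA vehicle (log2 change 1.41, SE 0.18, adjusted p = 1.29e-04), with 1.35 at the other feature. Against wildtype they were at -0.32 (adjusted p = 0.375) and -0.44 (adjusted p = 0.331). Without wildtype array 2 those differences became -0.49 (adjusted p = 0.0588) and -0.71 (adjusted p = 0.0204), so that 1 feature of S100b was then called lower than wildtype in ceftriaxone cords.

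**Figure D2:**
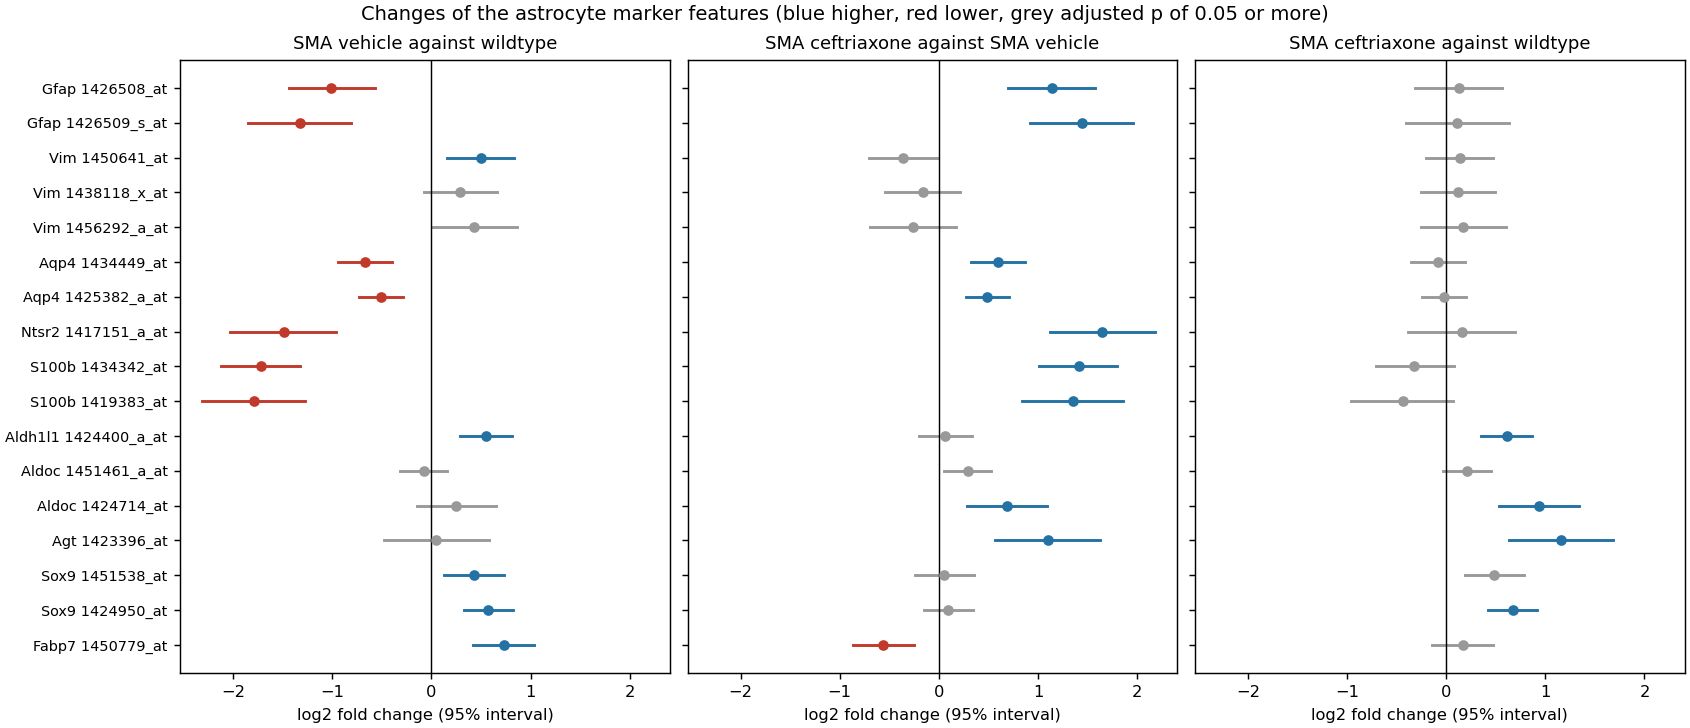
Log2 fold change on the signal + 16 scale with its 95% interval for the 17 features past the filter, in each of the 3 comparisons (n = 4 arrays a group). Blue marks higher, red lower and grey an adjusted p of 0.05 or more. Gfap, Aqp4, Ntsr2 and S100b lie left of 0 in the first panel and right of it in the second.

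Aldh1l1, the folate enzyme used to mark astrocytes as a whole, did not follow them. The feature 1424400_a_at gave 1440, 908, 1360 and 1214 in wildtype, 1946, 1788, 1781 and 1624 in SMA vehicle, and 1937, 1961, 1767 and 1795 in SMA ceftriaxone cords. All 8 SMA arrays were above all wildtype arrays. Aldh1l1 rose in SMA vehicle cords (log2 change 0.55, SE 0.12, adjusted p = 0.0022; 0.41 without wildtype array 2) and was above wildtype with ceftriaxone (log2 change 0.61, adjusted p = 0.016; 0.48 without wildtype array 2). The SMA groups differed by 0.06 (95% interval -0.20 to 0.33, adjusted p = 0.711).

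Aldoc encodes the brain form of the glycolytic enzyme aldolase, which astrocytes make in large amounts. The bright feature 1451461_a_at gave 13406, 10146, 15237 and 15443 in wildtype, 11787, 13200, 12516 and 13088 in SMA vehicle, and 15003, 15231, 15114 and 16560 in SMA ceftriaxone cords. The ceftriaxone arrays were above every SMA vehicle array by a modest margin, and the change of 0.29 missed the threshold (adjusted p = 0.0555). It passed when wildtype array 2 (adjusted p = 9.99e-04), 3 or 4 was left out, which leaves these 8 arrays and changes only the pooled spread. The second feature, 1424714_at, gave 974, 609, 1004 and 1001 in wildtype, 1046, 1234, 1020 and 919 in SMA vehicle, and 1272, 2276, 1545 and 1860 in SMA ceftriaxone cords. It was higher with ceftriaxone than with vehicle (log2 change 0.69, SE 0.19, adjusted p = 0.0119) and than in wildtype (0.94, adjusted p = 0.0166; 0.77 without wildtype array 2), without overlap in either comparison. In SMA vehicle cords neither feature differed from wildtype past the threshold (-0.08 and 0.25). Without wildtype array 2 the bright feature was called lower there (-0.21, adjusted p = 0.0087) and the second was at 0.08. The bright feature differed from wildtype by 0.21 in ceftriaxone cords (adjusted p = 0.325), or by 0.08 without that array.

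Agt encodes angiotensinogen, the secreted precursor of the angiotensins. Its feature, 1423396_at, gave 3095, 2443, 4082 and 3654 in wildtype, 3597, 4714, 2946 and 2602 in SMA vehicle, and 4774, 9461, 6186 and 10043 in SMA ceftriaxone cords. Wildtype and SMA vehicle arrays overlapped throughout, and every ceftriaxone array was above them. The SMA vehicle group differed from wildtype by 0.05 (95% interval -0.48 to 0.58, adjusted p = 0.882), or by -0.09 without wildtype array 2. Agt was higher with ceftriaxone than with vehicle (log2 change 1.10, SE 0.25, adjusted p = 0.00372) and than in wildtype (1.16, SE 0.25, adjusted p = 0.0216; 1.02 without wildtype array 2). The call against wildtype was lost when ceftriaxone array 2, 3 or 4 was left out. Agt was the most variable member in ceftriaxone cords, with a coefficient of variation of 33.4%: arrays 2 and 4 were high.

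Sox9, the transcription factor that commits cells to glia, was dim. The feature 1451538_at gave 284, 202, 297 and 251 in wildtype, 381, 336, 304 and 388 in SMA vehicle, and 327, 439, 322 and 381 in SMA ceftriaxone cords. The feature 1424950_at gave 191, 143, 185 and 175 in wildtype, 297, 260, 244 and 258 in SMA vehicle, and 258, 275, 321 and 283 in SMA ceftriaxone cords. At both features all SMA arrays were above all wildtype arrays. Sox9 rose in SMA vehicle cords by 0.43 (SE 0.14, adjusted p = 0.0207) and 0.57 (SE 0.11, adjusted p = 0.00115), or 0.32 and 0.49 without wildtype array 2. The first of these calls was lost without SMA vehicle array 1 or 4. In ceftriaxone cords the second feature was above wildtype (0.67, adjusted p = 0.00849) and the first missed the threshold (0.48, adjusted p = 0.0681). These were 0.59 and 0.38 without wildtype array 2, on the same sides of the threshold. Between the SMA groups the changes were 0.05 (95% interval -0.24 to 0.35) and 0.09 (-0.15 to 0.34).

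Fabp7, the brain fatty acid binding protein of radial glia and immature astrocytes, was the member highest in SMA vehicle cords relative to wildtype. Its feature, 1450779_at, gave 8646, 6959, 9622 and 8453 in wildtype, 12789, 14006, 14486 and 14189 in SMA vehicle, and 12288, 7698, 10620 and 7711 in SMA ceftriaxone cords. Every SMA vehicle array was above every other array, and the ceftriaxone arrays divided, with arrays 2 and 4 inside the wildtype range. Fabp7 rose 1.65 times in SMA vehicle cords (log2 change 0.73, SE 0.14, adjusted p = 9.93e-04; 0.64 without wildtype array 2). With ceftriaxone it was lower than with vehicle (log2 change -0.56, SE 0.14, adjusted p = 0.00815). Ceftriaxone cords differed from wildtype by 0.17 (95% interval -0.14 to 0.47, adjusted p = 0.566), or by 0.08 without wildtype array 2.

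Over the 17 features the median log2 change in SMA vehicle against wildtype cords was 0.05, against 0.01 over all features, with changes from -1.79 to 0.73. It was -0.02 over the 10 genes, each by its brightest feature, so it lay near 0 by either count. The share of features that fell (7 of 17) was above the background of 22.3% and the share that rose (5 of 17) near that of 24.9%. Several of these features belong to the same gene. By each gene's brightest feature 4 of 10 fell and 4 of 10 rose, where 23.6% and 25.5% of all 8004 genes did. In 9 of the 17 features the groups did not overlap, which was also so for 42.5% of all features. With ceftriaxone against vehicle the median over the 17 features was 0.49 against -0.01 over all, and 11 of the 17 did not overlap, where 45.3% of all features did not. With ceftriaxone against wildtype the median was 0.16 against 0.01, 5 of the 17 did not overlap, where 11.6% of all features did not, and 0 of 17 were called lower by limma, where 0.928% of all features were. At an unadjusted p under 0.05, 5 of the 17 were higher and 0 lower in that last comparison. At that unadjusted p, 2727 of all 13575 features passed in either direction. Without wildtype array 2 the counts were 7 higher and 8 lower, then 10 and 2, then 4 and 1, where 31% and 27.5%, then 24.5% and 25.6%, then 6.3% and 4.28% of all features were called. Any 2 of the 3 comparisons share a group of arrays: a deviation of the SMA vehicle group enters both comparisons that hold it with opposite sign, and one of the wildtype group enters both of its comparisons with the same sign. Between 2 features of 1 gene, calls differed for Vim in the first comparison, for Aldoc in the second and for Aldoc and Sox9 in the third.

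**Figure D3:**
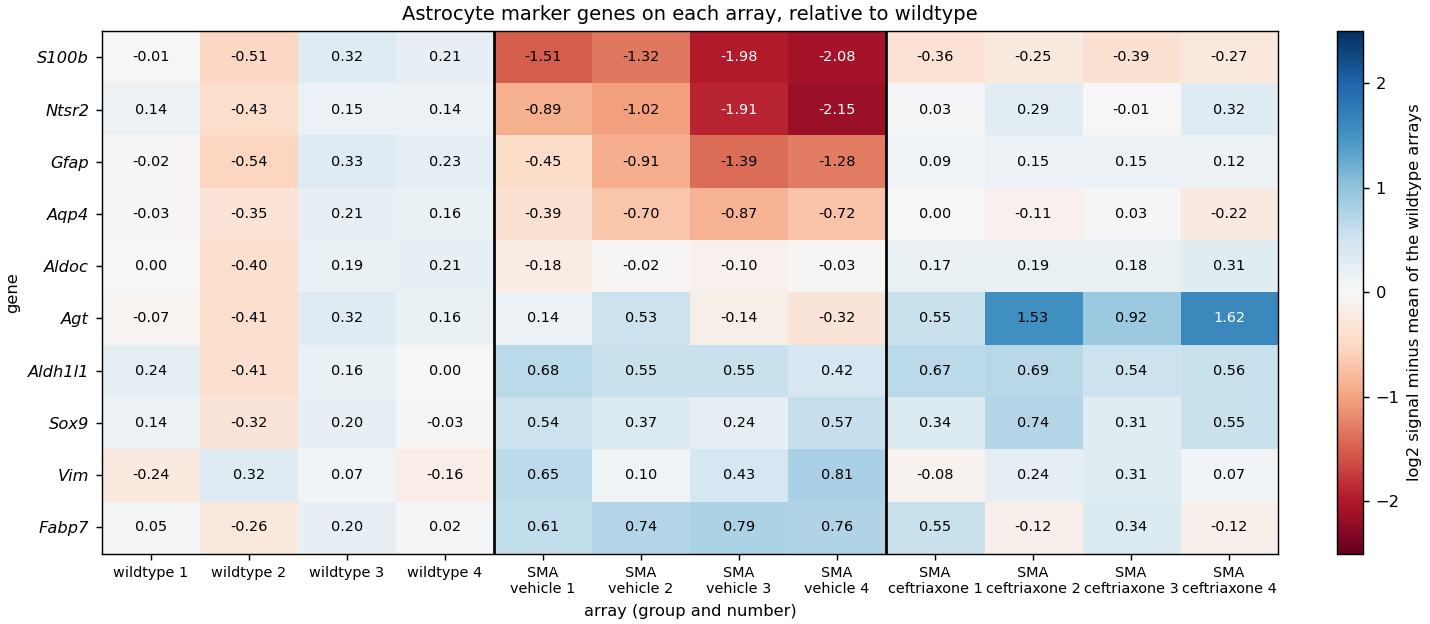
Log2 signal of each member's brightest feature on each of the 12 arrays minus the mean of the 4 wildtype arrays (blue above, red below). S100b, Ntsr2 and Gfap are lowest on SMA vehicle arrays 3 and 4, and Agt is highest on SMA ceftriaxone arrays 2 and 4.

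Within the SMA vehicle group Gfap, Ntsr2 and S100b were higher on arrays 1 and 2 than on arrays 3 and 4. Relative to the wildtype mean, Gfap stood at -0.45 and -0.91 on arrays 1 and 2 and at -1.39 and -1.28 on arrays 3 and 4. Ntsr2 stood at -0.89 and -1.02, then at -1.91 and -2.15, and S100b at -1.51 and -1.32, then at -1.98 and -2.08. The summed signal of 9 genes of mature oligodendrocytes, the myelin-forming cells, had the same division, at 53933 and 49963 on arrays 1 and 2 and 33004 and 25800 on arrays 3 and 4. Aqp4 stood at -0.39 and -0.70, then at -0.87 and -0.72, so that arrays 2 and 4 were nearly alike. Aldh1l1 was only narrowly higher on arrays 1 and 2, at 0.68 and 0.55, then at 0.55 and 0.42. Agt stood at 0.14 and 0.53, then at -0.14 and -0.32. Sox9 did not divide that way at its brightest feature (0.54, 0.37, 0.24 and 0.57). Its other feature narrowly did (0.73 and 0.55, then 0.47 and 0.54). Vim did not divide at its brightest feature (0.65, 0.1, 0.43 and 0.81), and Fabp7 was lower on arrays 1 and 2 (0.61 and 0.74, then 0.79 and 0.76). Within the ceftriaxone group another division appeared, between arrays 2 and 4 and arrays 1 and 3. On arrays 2 and 4 Agt stood at 1.53 and 1.62 (0.55 and 0.92 on the others), and Fabp7 at -0.12 on each (0.55 and 0.34 on the others). These divisions were noticed in the values and are described without a test.

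The genes whose log2 signals ran most like those of 4 members over the 12 arrays were ranked by Pearson's r among 12571 features. The arrays share their groups, so r is also given after removal of the group means. That removal leaves in the deviation of the wildtype array with thymocyte gene signal from its group. No r was computed without that array. For Gfap they were Tmem98 (r = 0.99, 0.96 within groups), Pbxip1, Bace2, Sox10 and Adam9. Sox10 is also held in the list of oligodendrocyte precursor genes used below. For Ntsr2 they were Pim3 (r = 0.991, 0.96 within groups), Tspan2, Clu and 2 features of Mobp, a myelin gene. Fabp7 ran most like Cpeb4 (r = 0.974, 0.93 within groups), Ckap4, Trim62, Rtl6 and Msl1, and Vim most like Clpb (r = 0.944, 0.90 within groups), Glipr2, Fzd7, Sostdc1 and Col6a1. Mean signals of Tmem98 were 1433, 613 and 1525 in wildtype, SMA vehicle and SMA ceftriaxone cords, and those of Tspan2 were 6390, 1648 and 6718.

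Beyond the members, 36 other astrocyte genes were tested, each by its brightest feature. In SMA vehicle cords 6 rose, 12 fell and 18 did not pass, with a median of -0.17, where 25.5% of all 8004 genes rose and 23.6% fell. When wildtype array 2 was left out, 6 rose and 21 fell, with a median of -0.27, where 31% of all features rose and 27.5% fell. Kcnj10, the potassium channel of astrocytes and oligodendrocytes, gave 4582, 2768, 4774 and 5091 in wildtype and 1375, 1427, 904 and 687 in SMA vehicle cords, which did not overlap (log2 change -1.98, SE 0.23, adjusted p = 2.07e-05). Aldh1a1, a retinaldehyde dehydrogenase (-1.97), Gpr37l1, a glial orphan receptor (-1.97), and Gjb6, the gap junction protein connexin 30 (-1.34), also fell. Among the 6 that rose was Mfge8, a secreted bridge protein for engulfment of cells (1.19, adjusted p = 1.02e-06), and Slc1a3, the glutamate transporter of immature and mature astrocytes (0.83, adjusted p = 0.00156). Slc1a2, another glutamate transporter of astrocytes, was dim (mean 203 in wildtype and 81 in SMA vehicle cords). It fell in SMA vehicle cords (-1.16, adjusted p = 0.0017) and rose with ceftriaxone (1.21, adjusted p = 0.00209). Mfge8, Slc1a3 and Slc1a2 were named after their values were seen.

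With ceftriaxone, 21 of those 36 genes rose and 2 fell against SMA vehicle, with a median of 0.44. Of all genes, 19.9% rose and 17.8% fell. Without wildtype array 2 the counts were 27 and 2, where 24.5% of all features rose and 25.6% fell. Gjb6 was 1149, 2575, 1435 and 2941 in ceftriaxone cords after 485, 770, 439 and 331 in SMA vehicle cords (log2 change 1.93, SE 0.30, adjusted p = 4.4e-04). Dio2, the enzyme that activates thyroid hormone in astrocytes, was 446, 662, 422 and 696 after 165, 214, 113 and 134 (log2 change 1.73, SE 0.21, adjusted p = 9.79e-05). Both genes were highest on ceftriaxone arrays 2 and 4, like Agt. Mfge8 (-0.84) and Gldc, the glycine decarboxylase (-0.67), were the 2 that fell. Against wildtype limma called 4 of the 36 higher and 0 lower in ceftriaxone cords. Of all genes, 3.84% were higher and 0.962% lower. At an unadjusted p under 0.05, 15 of the 36 were higher and 0 lower, where 2727 of all 13575 features passed in either direction. The 4 that limma called were Slc1a3 (0.84), Mt2 (1.13), Fgfr3 (0.57) and Mfge8 (0.35). Gldc, Mt2 and Fgfr3 were likewise named after their values were seen.

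Of 28 genes of reactive astrocytes on the array, 13 passed the filter on dim values. Over all 8004 genes, 25.5% rose and 23.6% fell in SMA vehicle cords, and 19.9% and 17.8% did with ceftriaxone. Of the 13, 1 rose and 2 fell in SMA vehicle cords, with a median of -0.21. With ceftriaxone 1 rose and 1 fell, with a median of 0.28. The counts of the list became 1 and 3, then 3 and 2, without wildtype array 2. In that fit 31% and 27.5%, then 24.5% and 25.6% of all features were called. The gene that rose was B3gnt5, a glycosyltransferase, at 102, 144, 112 and 102 in wildtype, 310, 357, 509 and 559 in SMA vehicle and 181, 136, 133 and 98 in ceftriaxone cords (log2 change 1.75, SE 0.20, adjusted p = 1.98e-05, then -1.54). Cd44 (-0.52) and S100a10 (-0.36) fell in SMA vehicle cords. Serpina3n, a secreted protease inhibitor that marks reactive astrocytes, rose with ceftriaxone (0.67, adjusted p = 0.0102).

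Of 10 genes of radial glia and immature glia, 6 rose and 1 fell in SMA vehicle cords (median 0.51), where 25.5% and 23.6% of all genes did. With ceftriaxone 1 rose and 3 fell (median -0.19), where 19.9% and 17.8% of all genes did. Leaving out wildtype array 2 gave 8 that rose and 1 that fell in SMA vehicle cords, where 31% and 27.5% of all features did. Cspg5, a neural proteoglycan, gave 2156, 1384, 1899 and 1741 in wildtype, 4415, 4203, 4508 and 4232 in SMA vehicle and 2846, 2342, 2963 and 2131 in ceftriaxone cords (1.28, adjusted p = 6.97e-06, then -0.76). Cd24a (1.07), a surface protein of immature neural cells, and Ptprz1 (0.59), a receptor phosphatase of glial precursors, rose as well. Tnc, the matrix protein tenascin C, was 592, 301, 618 and 273 with ceftriaxone, low on arrays 2 and 4 like Fabp7, and fell against SMA vehicle (-0.94, adjusted p = 0.0273). Prom1 ran opposite to the list, at -0.95 and then 0.81.

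Among 25 genes of signals and factors that induce or oppose astrocyte formation, 5 rose and 8 fell in SMA vehicle cords (median -0.18). With ceftriaxone 6 rose and 4 fell (median 0.13). Olig1 and Olig2, which oppose it, are among the 8 that fell and the 6 that rose. Of all genes, 25.5% rose and 23.6% fell, then 19.9% rose and 17.8% fell. The counts of the list became 6 and 11, then 9 and 5, when wildtype array 2 was left out. In that fit 31% and 27.5%, then 24.5% and 25.6% of all features were called. Against wildtype, 0 of the 25 were called in ceftriaxone cords by limma, and 9 had an unadjusted p under 0.05 (6 higher, 3 lower). At that unadjusted p, 2727 of all 13575 features passed in either direction. Without wildtype array 2, 2 of the 25 were called higher and 1 lower, where 6.3% and 4.28% of all features were. Bmp4, a ligand that drives astrocyte formation, was 729, 438, 614 and 604 in wildtype, 215, 294, 186 and 192 in SMA vehicle and 632, 832, 657 and 656 in ceftriaxone cords, so only the SMA vehicle group stood apart (-1.36, adjusted p = 2.64e-05, then 1.59, adjusted p = 5.03e-05). Smad1, which carries the BMP signal to the nucleus, moved oppositely (0.85, then -0.52). Id1, a target of BMP, differed from wildtype by -0.33 in SMA vehicle cords (adjusted p = 0.115) and rose with ceftriaxone (0.54, adjusted p = 0.0213). Olig1 and Olig2, which oppose astrocyte fate and are held in the precursor list as well, fell (-0.74 and -0.99) and then rose (0.74 and 1.09).

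**Figure D4:**
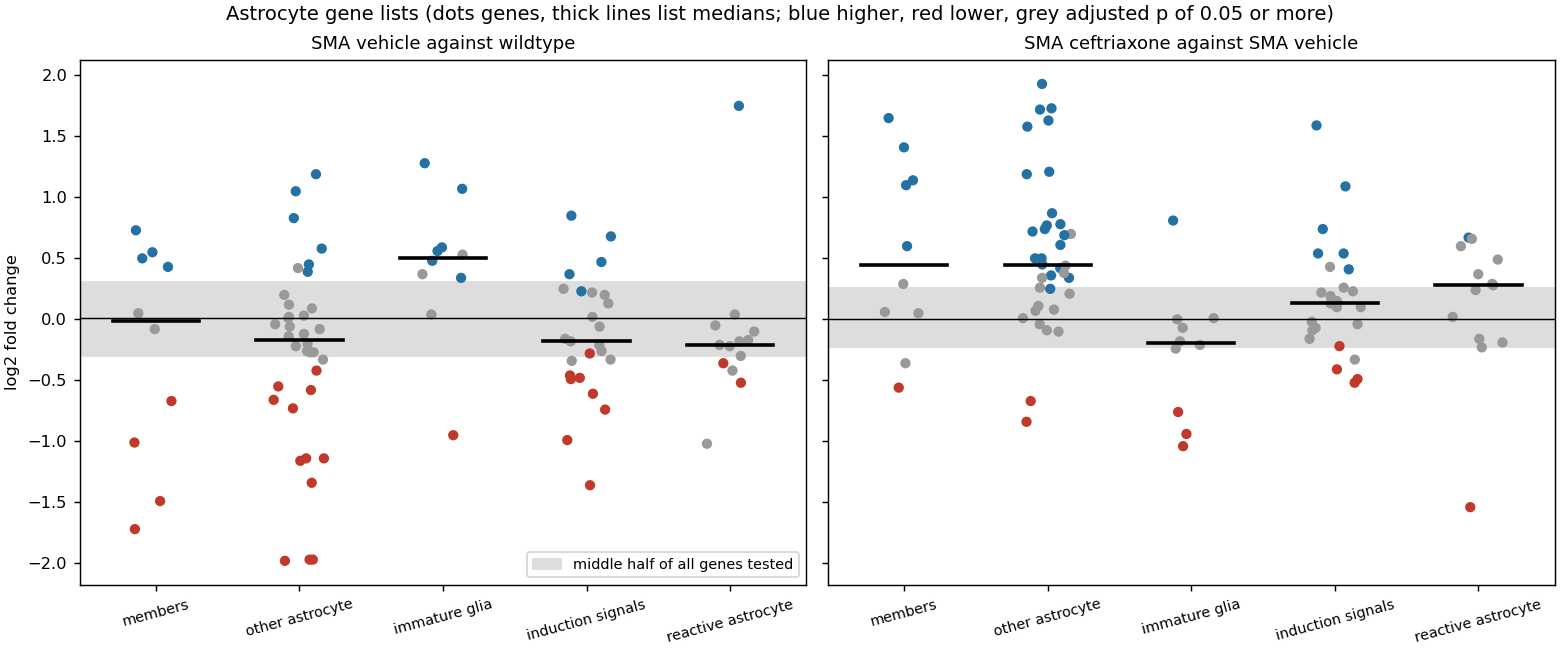
Log2 fold change of each tested gene in the members and 4 further astrocyte lists, for SMA vehicle against wildtype and SMA ceftriaxone against SMA vehicle. Dots are genes (blue higher, red lower, grey not past the threshold), thick lines are list medians and the grey band holds the central part of all 8004 genes, from -0.30 to 0.31 and from -0.23 to 0.26. The median of the immature glia list is 0.51 in the first panel and -0.19 in the second.

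Markers of other cells moved with the same groups, and their part in the members' changes was not tested. Over all 8004 genes, 25.5% rose and 23.6% fell in SMA vehicle cords, and 19.9% rose and 17.8% fell with ceftriaxone. All 9 mature oligodendrocyte genes fell in SMA vehicle cords (median -2.23) and all 9 rose with ceftriaxone (median 2.09). Their summed signal ranged from 86315 to 138595 in wildtype, 25800 to 53933 in SMA vehicle and 100390 to 110580 in ceftriaxone cords, and none was at 0 on any array. Mog, a myelin protein, led with -3.77 and 3.40. Of 9 microglia genes 5 fell and then 5 rose, of 13 endothelial and pericyte genes 7 fell and then 6 rose, and no gene of either list was called the opposite way by limma (0 also at an unadjusted p under 0.05). Summed microglia signals were 7722 to 11133, 5990 to 7159 and 7822 to 10119 in the 3 groups, and summed endothelial signals 8592 to 11333, 5687 to 7557 and 7806 to 10290. Of 15 neuron genes 9 rose and 3 fell in SMA vehicle cords, led by Dcx, a protein of migrating neurons (2.53), and 2 rose and 8 fell with ceftriaxone. Of 5 oligodendrocyte precursor genes 3 fell and 1 rose, then 4 rose. Of 9 genes of meninges and fibroblasts 2 rose and 2 fell, then 1 rose and 3 fell. Of 11 skeletal muscle genes on the array 4 passed the filter. Of these, 3 rose and 1 fell, then 1 rose and 3 fell. Acta1, Myl1 and Mylpf moved together (2.63, 2.51 and 1.38, then -3.31, -3.60 and -2.88), and Pvalb ran opposite (-2.60, then 1.85). Summed skeletal muscle signals were 1531 to 3524, 3084 to 6716 and 764 to 1707. Of 5 ependyma genes on the array 2 passed the filter. In SMA vehicle cords 1 of these rose (Rsph1, 0.86) and 0 fell. With ceftriaxone 0 were called by limma, and 1 was lower at an unadjusted p under 0.05. Summed signals of the 5 ependyma genes were 336 to 428, 601 to 786 and 403 to 553. With wildtype array 2 left out, 10 endothelial genes fell in SMA vehicle cords, where 27.5% of all features fell. Summed signals of the 10 members were 46737 to 70216, 48125 to 54401 and 66730 to 69250.

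High Xist signal also went with the groups. Among arrays of low Xist signal, 3 wildtype and 2 SMA vehicle arrays, 7 of the 17 features were called against 12 in the whole comparison, with 1 higher (Fabp7, 0.83) and 6 lower, where 8.62% of all features were higher and 7.41% lower. Gfap (-1.04), Ntsr2 (-1.41), S100b (-1.54) and Aqp4 (-0.71 at 1434449_at) kept their calls there. Aldh1l1 was at 0.61 (adjusted p = 0.0992) and Sox9 at 0.37 and 0.54 (adjusted p = 0.244 and 0.11), so neither gene was called. The calls of Aqp4 at 1425382_a_at (-0.55, adjusted p = 0.0758) and of Vim at 1450641_at (0.29, adjusted p = 0.395) were lost as well. Among arrays of high Xist signal, 2 SMA vehicle and 4 ceftriaxone arrays, 12 of 17 were called, 10 higher and 2 lower, where 16.4% and 16.5% of all features were. The 2 lower were features of Vim (-0.59 and -0.47), which had missed the threshold in the whole comparison. Ntsr2 (1.68), S100b (1.48), Agt (1.25) and Gfap (0.99) were higher with ceftriaxone there, and Fabp7 was at -0.52 (adjusted p = 0.0578). With Xist signal as a covariate, 0 of the 17 features were called for ceftriaxone against wildtype by limma, and 4 had an unadjusted p under 0.05. Of all 13575 features, 80 were called in that fit and 1894 had an unadjusted p under 0.05. The 4 changes that were called without the covariate were then 1.14 for Agt, 0.94 for Aldoc, 0.58 for Sox9 and 0.56 for Aldh1l1, against 1.16, 0.94, 0.67 and 0.61.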

How the data were processed

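Each array file column holds linear intensity values, 1 per probe set, which the authors deposited after MAS5, per the submitters' processing notes (version not given in the sources used here). They had been scaled: a mean trimmed by 2% at each end came to 700.2 to 700.3 on every array. Groups and array numbers come from the labels. Symbols come from the platform annotation of 2016 (20393 probe sets with 1 symbol, 691 with several, 1606 with none, of 22690), updated through gene identifiers for 20364. Members were matched by symbol, and 34 genes of the lists had no feature with a single symbol.

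After 64 control probe sets were left out, log2(signal + 16) was fitted with a mean per group over all 12 arrays in limma 3.58.1 under R 4.3.3 (eBayes, trend on mean signal, 9 residual df). Features above the 40th percentile of mean log2 were kept, the dimmest at a geometric mean signal of 125. Tests are two-sided, with Benjamini-Hochberg adjustment over the 13575 kept features. The median SE was 0.12, and 4 arrays a group limit the precision. Counts of lists used each gene's brightest feature.

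Named are all features of the members, 5 genes most like each of 4 members, and Smn1, Xist, Eif2s3y, Rag1 and Gapdh as checks of the arrays. From each list and comparison up to 4 genes of largest change were picked (2 of smallest p where none passed). Not all of those picked are named, above all in the lists of other cells. The members and lists were chosen with earlier results of these data known. The model was tested on simulated data. Same-numbered arrays were not treated as pairs. Promoter windows are RefSeq's, on GRCm38.p6; 8 of the 10 members were used. Detection calls were not used.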

Additional observations from a re-analysis of the deposited data

Results flagged for a closer look

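In 54 groups of 4 signals (18 features in 3 groups), 3 held 1 array whose gap to its nearest neighbour exceeded Dixon's 95% critical share of the group's whole range, and chance alone marks about 1 in 20 such groups. For Ntsr2 (1417151_a_at), wildtype array 2 gave 3319.7 where the others gave 4931.6 to 4967.8, a gap of 0.978 of the range. For the second feature of Aldoc (1424714_at), the same array gave 609.3 against 973.7 to 1004, a gap of 0.923. This is the array that holds thymus gene signals. For the bright feature of Aldoc (1451461_a_at), SMA ceftriaxone array 4 gave 16560 against 15002.8 to 15231.4, a gap of 0.853.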

How the results depend on the processing

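The members were called 26 times over the 3 comparisons, and 16 of these calls held under every alternative run (an offset of 1 or 64, quantile or median normalization, filters at 0 or the 60th percentile, a prior without trend, array weights, the replicate block, Xist signal or the Gapdh 3′ to 5′ ratio as covariate, only the groups compared, each array left out, and splits by Xist signal, which were added after seeing the data). The 16 include every call of Gfap, Ntsr2 and S100b and those of Agt and Aldoc for ceftriaxone against vehicle. No called change reversed. The alternatives gave 1252 member values in all, 1 for each feature, comparison and alternative. Of these values, 23 were uncalled and had the opposite sign to the main fit. The count of all features moved most for ceftriaxone against wildtype. There, 572 features of all those tested were called, against 239 with median centring of the arrays, 1826 with array weights, 80 with Xist as covariate, 213 with the Gapdh ratio, 105 with only the groups compared, and 164 to 1436 when 1 array was left out (1436 without wildtype array 2). Of the 17 member features 4 were called there, against 0, 1 and 0 under the Xist, Gapdh and groups-only fits. Leaving out 1 array gave 3 to 5. At an unadjusted p under 0.05 the Xist and groups-only fits gave 4 and 5 member features, where 1894 and 2182 of all 13575 features passed in either direction. The cause was not tested, except that the groups-only fits use fewer arrays. For SMA vehicle against wildtype, arrays of low Xist signal (3 and 2) gave 2176 features against 6401, and 7 member features against 12. Leaving out 1 array gave 5502 to 7937 features and 10 to 15 member features there. For ceftriaxone against vehicle it gave 3729 to 6808 features (4879 in the whole fit) and 10 to 12 member features. Same-numbered arrays did not deviate together (r from -0.143 to 0.133, over 0.1 in 2 of 12 pairs). With the replicate block the counts were 6174, 4572 and 344 features and 12, 10 and 3 member features, the call lost being that of Agt against wildtype. Dim features such as those of Sox9 are limited by signal over background.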
